A study of Homo sapiens with 8 samples.

Results

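Cytosolic ribosomal protein genes encode the proteins of the large and small ribosomal subunits, and were followed here across 8 RNA sequencing libraries of C4-2B prostate cancer cells. A gene was taken as a member when its symbol in the deposited table is RPL or RPS with a number and at most the endings A, L, X or a further L, with the Y-linked copies left out. The rule uses names only and found 78 genes among 26443 rows with values, 47 of the large subunit and 31 of the small subunit. Of these, 76 averaged 1 FPKM or more across the libraries and were tested. RPL3L and RPL39L, paralogs known mainly from striated muscle and testis, lay below that level.

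C4-2B is an androgen-independent human line established from LNCaP cells. Over 7 days the cells received ENZ and EPZ6438 together (Combination), ENZ alone at 10 uM, EPZ6438 alone at 1 uM (EPZ), or DMSO as the vehicle control. For Combination the labels name both agents and give no doses of its own. ENZ is the usual short name of enzalutamide, an antiandrogen, and EPZ6438 (tazemetostat) inhibits EZH2, an enzyme that methylates histone H3. There were 4 groups of 2 libraries, named replicate 1 and replicate 2. All groups are 1 cell line, kept in RPMI with serum, and the labels do not say whether replicates were separate cultures, so p-values measure the spread between these libraries, which may be technical.

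A ribosome carries a single copy of nearly every one of these proteins, and the cell makes them in matched amounts. Their mRNAs are among the most abundant in growing cells. Most begin with a terminal oligopyrimidine tract, a C at the start of transcription followed by a run of C and T, which the mTOR pathway uses through LARP1 to control their translation and storage. MYC and other transcription factors act on their transcription.

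The sequences below show this start for members whose values are described later, 4 that clearly fell with Combination (RPS16, RPL14, RPL35 and RPL39) and 4 of the 5 that changed least (RPL36A, RPS3A, RPL10L and RPS27L). Each line gives 25 bases before and 25 bases from the annotated start, 5′ to 3′ on the gene's strand, from RefSeq on GRCh38.p14. Capitals mark the C at the start and the pyrimidines that follow it without a break, where there are at least 4 of them.
RPS16: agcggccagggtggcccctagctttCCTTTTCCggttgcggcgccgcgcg
RPL14: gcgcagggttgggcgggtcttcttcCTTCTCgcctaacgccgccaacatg
RPL35: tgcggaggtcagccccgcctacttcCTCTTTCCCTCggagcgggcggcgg
RPL39: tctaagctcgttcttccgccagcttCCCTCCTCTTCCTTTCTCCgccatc
RPL36A: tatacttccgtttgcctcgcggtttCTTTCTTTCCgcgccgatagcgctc
RPS3A: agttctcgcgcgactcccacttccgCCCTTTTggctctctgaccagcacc
RPL10L: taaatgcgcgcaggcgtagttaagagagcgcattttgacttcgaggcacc
RPS27L: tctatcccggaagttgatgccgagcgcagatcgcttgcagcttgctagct
The windows are chr19:39435925-39435974 for RPS16 (minus strand), chr3:40457314-40457363 for RPL14 (plus), chr9:124861933-124861982 for RPL35 (minus) and chrX:119791606-119791655 for RPL39 (minus). Those of the others are chrX:101390986-101391035 for RPL36A (plus), chr4:151099603-151099652 for RPS3A (plus), chr14:46651757-46651806 for RPL10L (minus) and chr15:63157453-63157502 for RPS27L (minus). RPL36A and RPS3A carry the tract like the first 4, while the windows of RPL10L and RPS27L have no capitals.

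The tract is common in the family. The promoter table held 61 of the 78 members, and 42 of them (68.9%) have the tract at an annotated start, against 5.14% of 27305 genes in the table and 14.9% of the 268 highly expressed genes outside the family that it holds. With the start allowed to shift by up to 10 bases either way, 54 members (88.5%) have it, against 38.4% of all genes in the table and 48.1% of the highly expressed genes outside the family. The search read the gene's own strand only, and the runs it counted contain C and T only. The 7 members with no tract within 10 bases were RPL10L, RPL17, RPL27, RPL6, RPS27L, RPS29 and RPS4X. Among the 17 members not searched are RPL5, RPL3L, RPS2, RPS15A, RPL23A, RPL23, RPL39L, RPL37, RPS20, RPL7, RPL30 and RPL8.

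Values are FPKM, fragments scaled to transcript length and library size, as the authors deposited them. Depth, estimated from the steps between low values, was 16400000 and 19300000 fragments with Combination, 19300000 and 22000000 with ENZ, 22500000 and 24400000 with EPZ, and 15400000 and 20400000 in DMSO, in rising order within each group. At these depths 1 fragment amounts to 0.0411 to 0.0649 FPKM for a length of 1 kilobase. The summed FPKM of a library differed between groups, at 218646 and 224223 with Combination, 283211 and 276531 with ENZ and 288954 and 296532 with EPZ, against 318599 and 314611 in DMSO. All 9 luminal prostate markers looked up, KLK3 and HOXB13 among them, were expressed in every group. Of 10 markers of fibroblasts, leukocytes, endothelium and basal epithelium, COL1A2 and CD3E were at 0 in every library and 2 passed the filter, COL1A1 and CD68. The summed level of the 10 was 22.3 to 23.7 FPKM with Combination, 10.1 to 11.7 with ENZ and 13.6 to 13.7 with EPZ, against 9.87 to 10.2 in DMSO, and without COL1A1 and CD68 it was at most 1.09 FPKM in any library. COL1A1, a collagen of fibroblasts, had 10.5 and 10.4 FPKM with Combination, against 2.43 and 2.24 in DMSO, and CD68, a macrophage marker, was 0.61 higher with Combination on the log2 scale. The part of these differences in the results was not tested.

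Levels within the family spanned several orders of magnitude. Of the 78 members, 7 had a mean of at least 1000 FPKM, 23 at least 500 and 52 at least 100, on a scale that is per length of transcript and so allows levels of different genes to be set side by side. The highest was RPS6, the small subunit protein that S6 kinase phosphorylates, with 899.8 and 984 FPKM with Combination, 1583 and 1632 with ENZ and 1515 and 1605 with EPZ, against 1764 and 1745 in DMSO. RPL8, a large subunit protein near the peptidyl transferase centre, had 769 and 773 FPKM with Combination, 1572 and 1422 with ENZ and 1513 and 1594 with EPZ, against 2021 and 1928 in DMSO. RPL35A had 726 and 731 FPKM with Combination, 1379.5 and 1441 with ENZ and 1596 and 1795 with EPZ, against 1910.3 and 1830.0 in DMSO. In these 3 genes both Combination libraries were far below all 6 others, and both DMSO libraries were highest. RPL3, which reaches into the catalytic centre, had 736 and 732 FPKM with Combination, 1151 and 1076 with ENZ and 1189 and 1233 with EPZ, against 1211 and 1164 in DMSO. For RPL3 the EPZ and DMSO libraries overlapped, ENZ lay just under them and Combination stood alone. The order of the first 3 is not firm: by the mean over all libraries it was RPS6, RPL8 and RPL35A, and in DMSO both RPL8 and RPL35A lay above RPS6.

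At the other end 7 members had means between 1 and 10 FPKM: RPL7, RPL36A, RPL21, RPS10, RPL10L, RPS3A and RPS26. GENCODE release 29 lists 61 pseudogenes of RPL7, 66 of RPL21, 38 of RPS3A, 30 of RPS26, 19 of RPL36A, 11 of RPS10 and none of RPL10L, and 1049 for the family in all. The median number was 30 over these 7 members and 8 over the 69 members at 10 FPKM or more. RPL36A overlaps the read-through gene RPL36A-HNRNPH2 and RPS10 overlaps RPS10-NUDT3. Members with nearly identical copies or overlapping genes can share reads with them, the sources used here do not give the rule by which the authors counted such reads, and the levels of these members are therefore uncertain. Other members with many pseudogenes had higher levels: RPL23A has 91 and a mean of 62.9 FPKM, RPL12 has 50 and 363 FPKM, and across the 78 members Spearman's rho between the number and the mean FPKM was −0.205, a description over genes that share libraries. RPL10L is a single exon of 812 bases on chromosome 14, from 46651010 to 46651821 on the minus strand. RPL36A lies on chromosome X from 101390824 to 101396154 and RPS3A on chromosome 4 from 151099573 to 151104652, both on the plus strand (hg38, GENCODE release 29).

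The family held a smaller share of all FPKM with Combination than in any other group. Members made up 7.80% and 7.76% of the summed FPKM with Combination, 10.8% and 10.6% with ENZ and 11.2% and 11.6% with EPZ, against 11.7% and 11.6% in DMSO. Large subunit genes held 4.78% ± 0.0422 of the total with Combination, 6.51% ± 0.0929 with ENZ and 6.96% ± 0.159 with EPZ, against 7.07% ± 0.0206 in DMSO (SD, n = 2 each). Small subunit genes held 2.99% ± 0.0120 with Combination, 4.20% ± 0.0872 with ENZ and 4.45% ± 0.0887 with EPZ, against 4.61% ± 0.0612 in DMSO. The difference was −3.90 percentage points for Combination and −0.96 for ENZ, larger than the spread between replicates. With 2 libraries a group an exact permutation test cannot go below p = 0.333, so the shares were not tested. In bulk RNA, fewer cells of a type and less RNA per cell cannot be told apart. A share does not depend on a scaling factor of the library, but after quantile normalization, which changes the shape of each distribution, the ENZ difference was 0.20 and the Combination difference −1.90 percentage points.

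**Figure D1:**
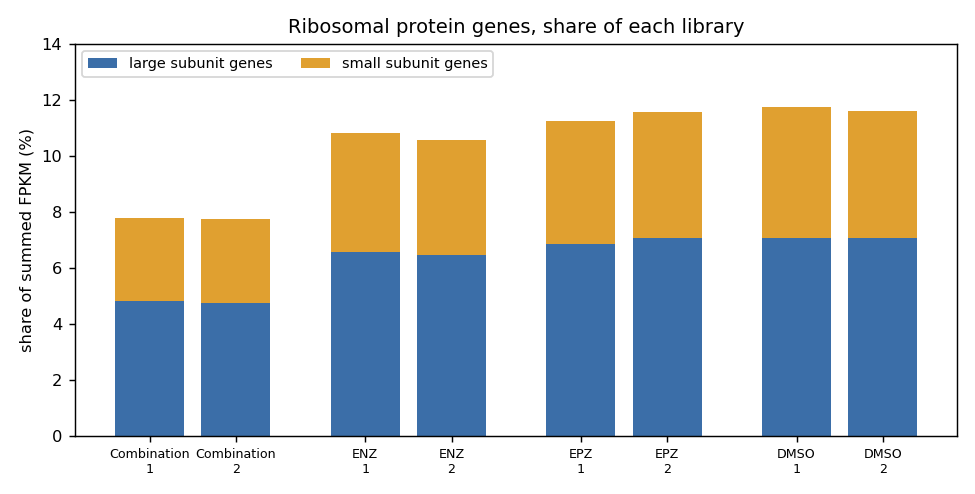
Share of the summed FPKM held by large subunit (blue) and small subunit (orange) ribosomal protein genes, in percent, in each of the 8 libraries. Both Combination libraries stand at 7.8%, and the 6 others between 10.6% and 11.7%.

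Against DMSO, Combination lowered 74 of the 76 tested members and raised none. The call is an adjusted p under 0.05 in limma's moderated test on log2(FPKM + 1), with Benjamini-Hochberg adjustment over all 11874 tested genes. Of all tested genes 47.4% were called lower and 33.3% higher. The median log2 change over the members was −1.07, a ratio of 0.477, with an interquartile range of −1.26 to −0.90, while the median over all tested genes was −0.15. Both Combination libraries lay below both DMSO libraries in 75 members and above them in 1, where 52.7% of all tested genes lay below and 38.2% above. The 45 tested large subunit genes had a median of −1.05 and the 31 small subunit genes −1.14. All comparisons with DMSO share its 2 libraries.

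Large falls with Combination were found in RPS2, RPS16, RPL14 and RPL4. RPS2, which lies by the channel where mRNA enters the small subunit, had 208 and 214 FPKM with Combination, 506 and 459 with ENZ and 473 and 494 with EPZ, against 697 and 659.7 in DMSO, a change of −1.68 (SE 0.0602, adjusted p = 4.89e-09). RPS16, a protein of the small subunit head, had 410.1 and 418 FPKM with Combination, 891 and 777 with ENZ and 1029.9 and 1071 with EPZ, against 1305 and 1178 in DMSO, a change of −1.58 (SE 0.0725, adjusted p = 2.47e-08). In both genes the Combination libraries were far below those of either single agent, and both single agents were below both DMSO libraries. RPL14 had 90.6 and 90.8 FPKM with Combination, against 265 and 277 in DMSO, and RPL4, which lines the tunnel through which the new protein leaves, 223 and 228 FPKM with Combination, against 653 and 664 in DMSO. Their changes were −1.57 and −1.54. After quantile normalization RPS2, RPS16, RPL14 and RPL4 were at −0.93, −0.77, −0.84 and −0.81 and still passed. RPL35 and RPL17 had −1.47 and −1.44. RPL17 overlaps the read-through gene RPL17-C18orf32 and its values are uncertain.

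The smallest changes were mostly in members of low level. RPL36A, part of the large subunit, was the only member whose Combination values both lay above DMSO, with 1.75 and 1.53 FPKM with Combination, 2.19 and 1.83 with ENZ and 1.65 and 1.88 with EPZ, against 1.16 and 1.41 in DMSO. Its change with Combination was 0.21 (SE 0.105, adjusted p = 0.0899), not past the threshold, and was −0.16 after quantile normalization and 0.49 (adjusted p = 0.00161) after scaling to the sum of genes outside the family. RPS3A, a small subunit protein near the mRNA exit, had 4.62 and 4.42 FPKM with Combination, 5.03 and 6.96 with ENZ and 5.26 and 5.76 with EPZ, against 5.04 and 5.58 in DMSO, a change of −0.19 (SE 0.119, adjusted p = 0.161) that was 0.19 after scaling to the sum of other genes. The same change passed when fitted with only the Combination and DMSO libraries (adjusted p = 0.0462) and without either ENZ library (0.0361 and 0.0372). The log2(FPKM + 1) scale understates the change of genes at this level.

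RPL10L fell by 0.28 (adjusted p = 0.0131), a call lost without the second DMSO library (adjusted p = 0.0607), without the second Combination library (0.109) and after scaling to the sum of other genes, where the change was 0.09. RPL7 had a change of −0.33 (adjusted p = 0.0389), and the call was lost with no filter on low values (0.0787), after scaling to the sum of other genes (0.517) and without any 1 of the DMSO, EPZ or Combination libraries (0.0549 to 0.153). Among members of higher level the smallest falls were in RPS27L at −0.49, RPL15 at −0.52, RPL10A of the L1 stalk at −0.69 and RPL3 at −0.69. RPL15 had 41.2 and 42.5 FPKM with Combination, against 59.6 and 61.6 in DMSO. RPL10A had 309 and 309 FPKM with Combination, against 519 and 481 in DMSO. After quantile normalization the changes of RPS27L, RPL15, RPL10A, RPL3 and RPS6 were 0.02, 0.10, 0.11, 0.26 and 0.10, so the direction for these 5 depends on that scaling. RPL3 and RPL10A then passed as higher (adjusted p = 1.80e-05 and 0.0245). After scaling to the sum of other genes the calls of RPS27L (−0.04, adjusted p = 0.586) and RPL15 (−0.07, 0.256) were also lost.

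**Figure D2:**
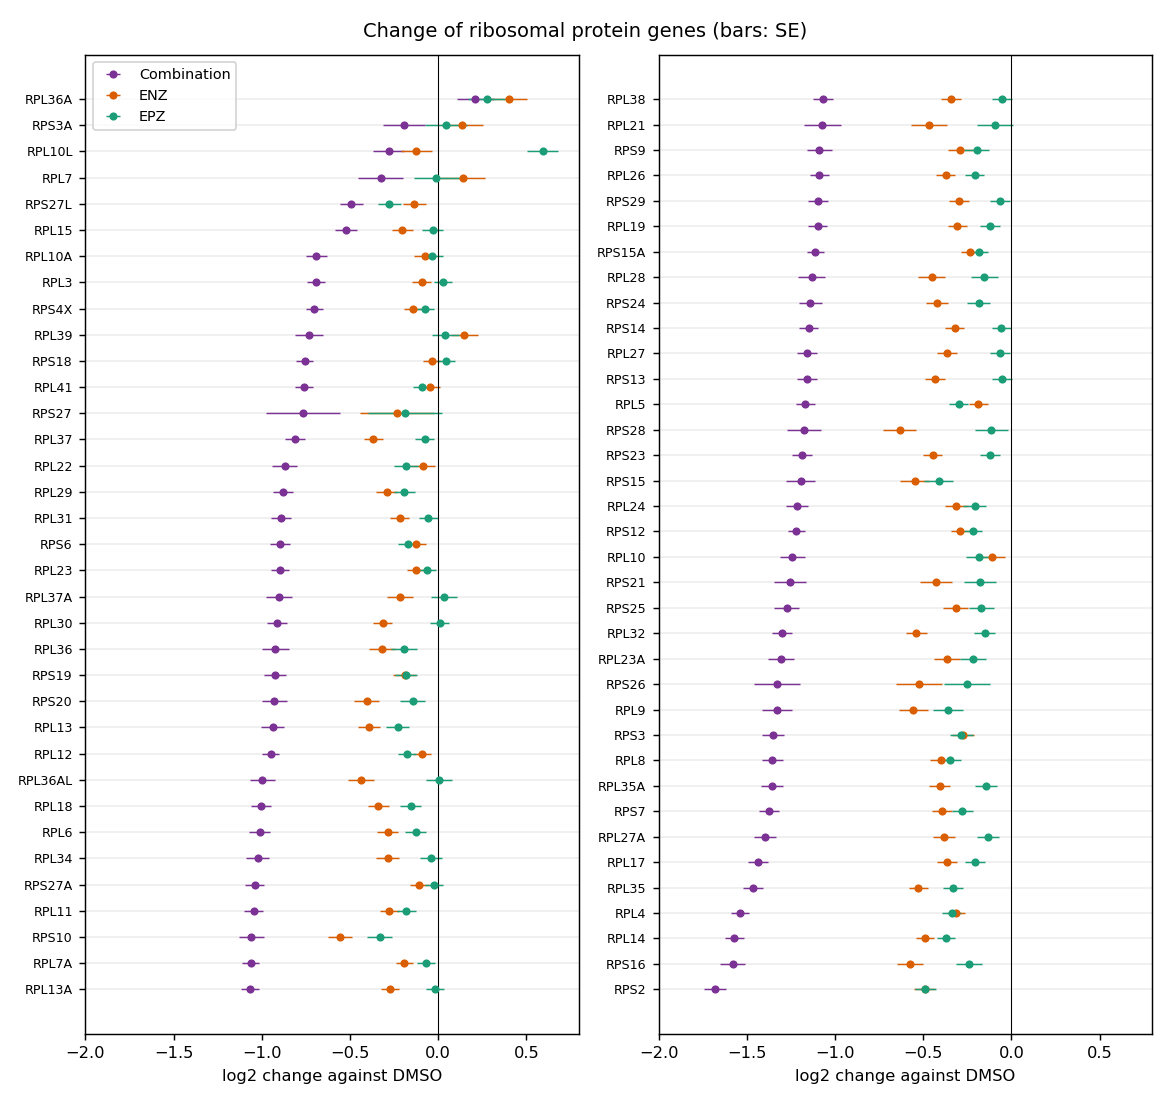
Log2 change against DMSO of 71 of the 76 tested members with Combination (purple), ENZ (orange) and EPZ (green), as points with the standard error of the fit as bars, ordered by the Combination change from RPL36A at the upper left to RPS2 at the lower right. All Combination points drawn but those of RPL36A, RPS3A, RPL10L and RPL7 lie between −1.68 and −0.49, and RPL36A is the only one above 0.

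To ask which members did not follow the family, each library was also centred on the median log2 level of the 69 members with a mean of at least 10 FPKM, and the fit repeated. With Combination 26 members departed lower and 22 higher, or 48 of 76, where 89.8% of all tested genes departed from that centre in either direction. The largest departures upward were RPL36A at 1.26, RPS3A at 0.86, RPL10L at 0.77, RPL7 at 0.72, RPS27L at 0.56 and RPL15 at 0.52. Among those downward were RPS2 at −0.63, RPS16 at −0.53 and RPL14 at −0.52. The centre is built from the members themselves, so that most sit near it follows from the choice. Centred on the mean of the same members instead, 20 departed lower and 27 higher with Combination, where 91.4% of all tested genes departed. With a pseudocount of 0.1 the departure of RPL7 was 0.46 and did not pass (adjusted p = 0.0995).

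ENZ alone lowered 59 of the 76 members and raised 1, with 16 not past the threshold and a median of −0.31. Among all tested genes 28.8% were lower and 27.9% higher, and their median was near 0. Both ENZ libraries lay below both DMSO libraries in 67 members and above them in 1, where 38.4% of all tested genes lay below and 38.7% above. The lowest was RPS28, a small subunit protein, with 44.7 and 43.4 FPKM with ENZ, against 77.7 and 60.9 in DMSO, a change of −0.63 (SE 0.0941, adjusted p = 3.90e-04). RPS16, RPL9, RPS10 and RPS15 followed at −0.57, −0.56, −0.56 and −0.55. In these 5 genes no ENZ library reached a DMSO library. After quantile normalization RPS28 was at −0.42 and RPS16 at −0.23, both past the threshold, and the RPS15 call was lost (−0.18, adjusted p = 0.0570). RPL36A rose by 0.40 (adjusted p = 0.00957) at a level under 3 FPKM, and this call was lost after quantile normalization (0.16, adjusted p = 0.232) and without the first DMSO library or the first ENZ library (adjusted p = 0.0731 and 0.0573). RPL39, a small protein of the exit tunnel, had 33.7 and 38.4 FPKM with ENZ, against 31.1 and 33.8 in DMSO. Its change of 0.15 did not pass (adjusted p = 0.129), but passed at 0.29 (adjusted p = 0.0142) after quantile normalization and 0.31 (0.00711) after scaling to the sum of other genes. RPL7, RPS3A and RPS18 had values of 0.14, 0.14 and −0.03, none past the threshold. Without the first ENZ library RPL7 at 0.34 (adjusted p = 0.0301), RPS3A at 0.34 (0.0136) and RPL39 at 0.24 (0.0249) passed as higher. After quantile normalization RPL7 stood at −0.08 (adjusted p = 0.619) and RPS18 at 0.20 (0.00755), and after scaling to the sum of other genes RPS18 was at 0.13 (0.0196).

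Under quantile normalization the ENZ result was a median of −0.06 with 10 members higher and 20 lower, where 23.1% of all tested genes were higher and 24.5% lower, so the members' share called lower was then near that of all genes. Departures from the family centre with ENZ numbered 36 lower and 4 higher, where 55.3% of all tested genes departed. That split rested on the centre. The median level used as centre changed by −0.18 and the mean of the same members by −0.31, and around the mean 14 members departed lower and 19 higher, where 69.2% of all tested genes departed. RPL36A at 0.58 and RPL39 at 0.32 departed upward, and RPS28 at −0.45 and RPS16 at −0.40 downward, around the median, and all 4 also departed the same way around the mean. The RPL39 departure did not pass without the first DMSO library (adjusted p = 0.109) or the second ENZ library (0.0797).

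With EPZ alone the family's median change was the closest to 0. Of the 76 members 35 fell, 2 rose and 39 did not pass the threshold, with a median of −0.15, against 32.4% of all tested genes lower, 23.4% higher and a median of −0.05. Both EPZ libraries lay below both DMSO libraries in 52 members and above them in 3, where 46% of all tested genes lay below and 36.1% above. The count of members lower changed with the library left out, while the median stayed between −0.19 and −0.12. With no filter on low values 15 members were lower, a count whose share over all tested genes is not given here. After quantile normalization 14 were lower and 7 higher, where 25.5% of all tested genes were lower and 23.9% higher. The lowest was RPS2 at −0.49 (SE 0.0602, adjusted p = 1.27e-04), with 473 and 494 FPKM with EPZ, against 697 and 659.7 in DMSO. RPS15, RPL14, RPL9 and RPL8 followed at −0.41, −0.37, −0.36 and −0.35. The RPL9 call was lost after quantile normalization (−0.23, adjusted p = 0.0518) and without the second DMSO library (0.0521), and the RPL8 call with no filter (0.0511). RPS15 and RPL14 were at −0.22 and −0.20 after quantile normalization and passed. RPL10L, an intronless copy of RPL10 best known from the male germ line, had 3.84 and 3.32 FPKM with Combination, 3.84 and 4.36 with ENZ and 7.08 and 7.69 with EPZ, against 4.48 and 4.62 in DMSO. Both EPZ libraries were above all 6 others in RPL10L, a change of 0.59 (SE 0.0868, adjusted p = 3.53e-04). The filter at a mean of 5 FPKM leaves this gene out. It passed in the other alternatives that kept both EPZ and both DMSO libraries, at 0.56 to 0.68 and adjusted p of 2.29e-04 to 0.00433. Without a single DMSO or EPZ library its change was 0.54 to 0.65. RPL36A rose by 0.28 (adjusted p = 0.0482), a call lost after median-of-ratios scaling (0.0528), quantile normalization (0.327), the removal of the filter (0.1004) and, over 6 of the 8 single libraries left out, at adjusted p of 0.0522 to 0.248. RPS3A, RPS18 and RPL39 had 0.04, 0.04 and 0.04, none past the threshold. Around the family centre 5 members departed lower and 17 higher with EPZ, where 52.1% of all tested genes departed, and 10 lower and 11 higher around the mean, where 55% did. The count that departed around the family centre changed with the library left out, and the share of all tested genes in those runs is not given here. RPL10L departed upward by 0.79 and RPS2 downward at −0.30.

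Combination was also compared with each single agent. Against ENZ, 74 members were lower and none higher with Combination, with a median of −0.77, where 45.5% of all tested genes were lower and 25.3% higher. Against EPZ, 74 were lower and none higher, with a median of −0.97, where 43.7% of all tested genes were lower and 29.2% higher. Both Combination libraries lay below both ENZ libraries in all 76 members, where 52.4% of all tested genes did, and below both EPZ libraries in 75, where 51.5% did. The members not past the threshold were RPL36A and RPL10L against ENZ, and RPL36A and RPS3A against EPZ. Large falls against ENZ were those of RPL4 at −1.23 and RPS2 at −1.19, and the smallest that passed were RPL15 at −0.32, RPS3A at −0.33 and RPS27L at −0.36. Large falls against EPZ were those of RPS16 at −1.34 and RPL27A at −1.26, and the smallest that passed were RPS27L at −0.21, RPL7 at −0.32 and RPL15 at −0.49. In all, 73 members were lower with Combination than in each of the other groups, where 34.2% of all tested genes were, and 30 were lower than DMSO in every treatment, where 17.4% were.

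The interaction asks whether the change with Combination differs from the sum of the changes with ENZ and EPZ on the log2 scale (Combination minus ENZ minus EPZ plus DMSO). It was below 0 in all 76 members and passed in 70, with a median of −0.63, where 29.6% of all tested genes passed lower and 9.99% higher and their median was −0.12. RPL10, a large subunit protein that joins late in assembly, had 36.9 and 33.7 FPKM with Combination, 79.4 and 77.8 with ENZ and 71.1 and 77.9 with EPZ, against 88.96 and 80.7 in DMSO, an interaction of −0.95 (SE 0.101, adjusted p = 9.29e-05). RPL39 had 18.8 and 19.4 FPKM with Combination, 33.7 and 38.4 with ENZ and 31.97 and 34.7 with EPZ, against 31.1 and 33.8 in DMSO, an interaction of −0.92 (SE 0.109, adjusted p = 1.73e-04). RPL10 and RPL39 did not pass with ENZ alone, and for both genes every Combination library lay below all 6 others. The weakest that passed were RPL15 at −0.29, RPL13 at −0.32 and RPL37 at −0.37. The 6 that did not pass were RPL7, RPS10, RPS15, RPS27, RPS27L and RPS3A. After quantile normalization the median was −0.32, with 1 member higher and 53 lower, where 19.9% of all tested genes were higher and 21.7% lower.

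Highly expressed genes outside the family moved in the same direction. Of 358 genes outside the family averaging at least 100 FPKM, 285 were lower and 49 higher with Combination (median −0.89). With ENZ 233 were lower and 48 higher (median −0.27), and with EPZ 175 and 89 (median −0.14). In the interaction 256 were lower and 16 higher (median −0.45). The family median minus that of these genes was −0.18 with Combination and −0.18 in the interaction, and −0.04 with ENZ and −0.01 with EPZ. Changes of −1 or lower with Combination were found in 48 members (63.2%) and in 160 of the 358 (44.7%). Of 794 genes outside the family whose merged annotated exons span under 1500 bases, 311 were lower and 255 higher with Combination (median −0.08). These are 39.2% lower and 32.1% higher, beside 47.4% and 33.3% of all tested genes. The 8 members as short by this measure had a median of −1.01. Merged exons can exceed the length of any single mRNA, and their median over all 78 members was 2944 bases. The 794 genes were not matched to the members in level, and the part of length was not tested. The part of abundance and of the scaling of the libraries in the members' result was not tested.

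**Figure D3:**
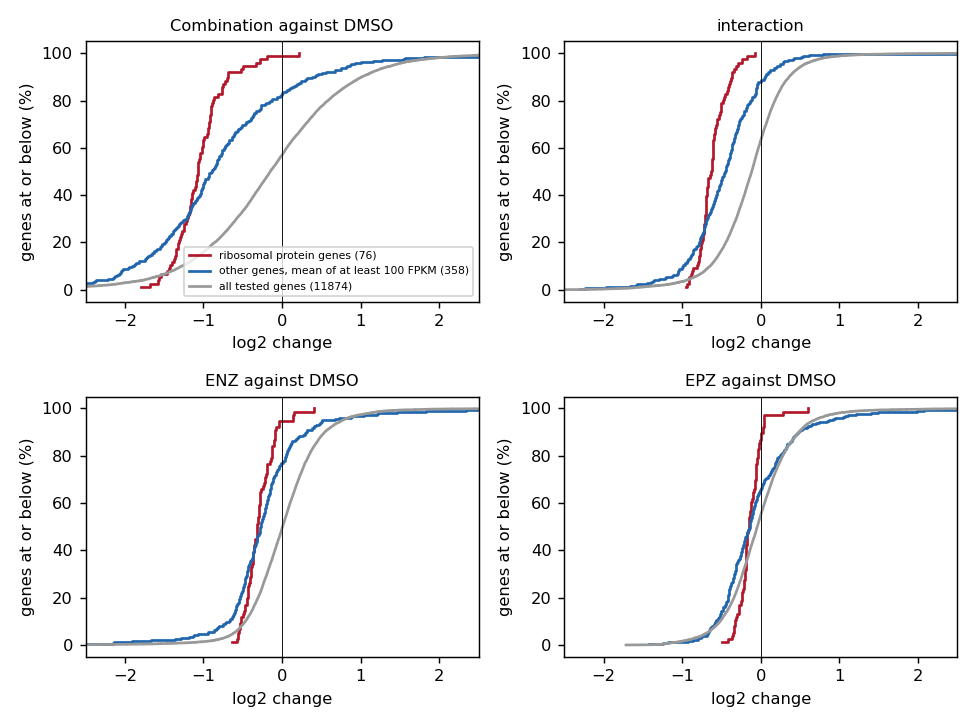
Cumulative share of genes, in percent, at or below each log2 change, for the 76 ribosomal protein genes (red), 358 other genes averaging at least 100 FPKM (blue) and all 11874 tested genes (grey); the horizontal axis leaves out the extremes. With Combination and in the interaction the red curve is steep around its medians of −1.07 and −0.63, crossing the wider blue curve and for the most part left of the grey one.

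Other scalings kept the family below the rest with Combination but changed its distance from 0. As deposited, the family median minus that of all tested genes was −0.92 with Combination, and it was −0.92 after median-of-ratios scaling, −0.88 after scaling to the sum of genes outside the family and −0.36 after quantile normalization. Scaling to the sum of other genes moved the median of all tested genes to 0.24, from −0.15 as deposited, and quantile normalization moved it to −0.03. Members called lower with Combination numbered 74 after median-of-ratios scaling, where 47.5% of all tested genes were lower. After scaling to the sum of other genes 69 were lower and 1 higher, where 29.1% of all tested genes were lower and 52% higher. Quantile normalization gave 59 lower and 2 higher, where 41% of all tested genes were lower and 37.7% higher. For ENZ the difference of medians was −0.32 as deposited and −0.04 after quantile normalization, and for EPZ −0.11 and −0.02.

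**Figure D4:**
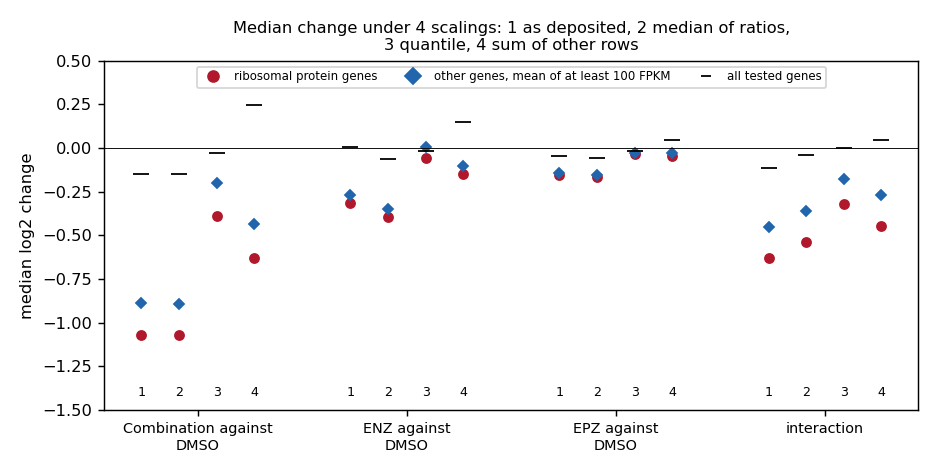
Median log2 change of the ribosomal protein genes (red circles), of 358 other genes averaging at least 100 FPKM (blue diamonds) and of all tested genes (black dashes), under 4 scalings numbered in the title, for 3 comparisons with DMSO and the interaction. The red circles are below the dashes throughout, and with Combination they stand at −1.07, −1.07, −0.39 and −0.63 from scaling 1 to 4.

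Paralogs were set beside their partners. RPS27L, a copy of RPS27, had 28.1 and 27.2 FPKM with Combination, 33.7 and 37.9 with ENZ and 31.6 and 32.97 with EPZ, against 38.6 and 40.00 in DMSO. RPS27 had 12.1 and 21.2 FPKM with Combination, 26.3 and 21.3 with ENZ and 25.4 and 23.6 with EPZ, against 31.6 and 24.8 in DMSO. The copy thus had the higher listed value of the pair in every library, on a scale per length. GENCODE lists 15 pseudogenes of RPS27 and none of RPS27L. The rule for shared reads is not known, so which of the pair is higher in the cells is uncertain. RPS27 fell by 0.76 with Combination (SE 0.211, adjusted p = 0.00707), but its Combination libraries stood apart from each other: the change was −0.38 without the first and −1.15 without the second. The call was lost after quantile normalization (adjusted p = 0.131) and after scaling to the sum of other genes (0.157). RPL36AL, a copy of RPL36A on chromosome 14, had 88.3 and 81.8 FPKM with Combination, against 183 and 159 in DMSO, a ratio of 0.501, or 0.05 from the family centre. RPL10 followed the family with Combination at −1.24, and RPL10L had −0.28.

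RPL22L1, a paralog of RPL22 whose symbol is outside the rule, fell more than any member. It had 37.4 and 36.2 FPKM with Combination, 109 and 116 with ENZ and 128 and 139 with EPZ, against 157 and 155 in DMSO, a change of −2.05 (SE 0.0587, adjusted p = 1.24e-09). Its partner RPL22, known to repress it, had 23.9 and 24.2 FPKM with Combination, against 45.9 and 43.7 in DMSO, a change of −0.87, so the pair came closer together with Combination. RPL26L1 changed by −0.75 beside −1.09 for RPL26, and RPL7L1 by −1.16 beside −0.33 for RPL7, whose level is near 1 FPKM and uncertain. With a pseudocount of 0.1 the change of RPL7 was −0.59.

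RPL39L was listed at 0 in both Combination and both ENZ libraries, at 0 and 0.0637 FPKM with EPZ, and at 0.0922 and 0.140 FPKM in DMSO, beside 18.8 to 38.4 FPKM for RPL39. RPL3L was at 0 in both Combination libraries, at 0.0339 and 0.0300 FPKM with ENZ and 0.161 and 0.176 with EPZ, against 0.0424 and 0.0645 in DMSO. A few fragments give these levels, and neither gene was tested.

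**Figure D5:**
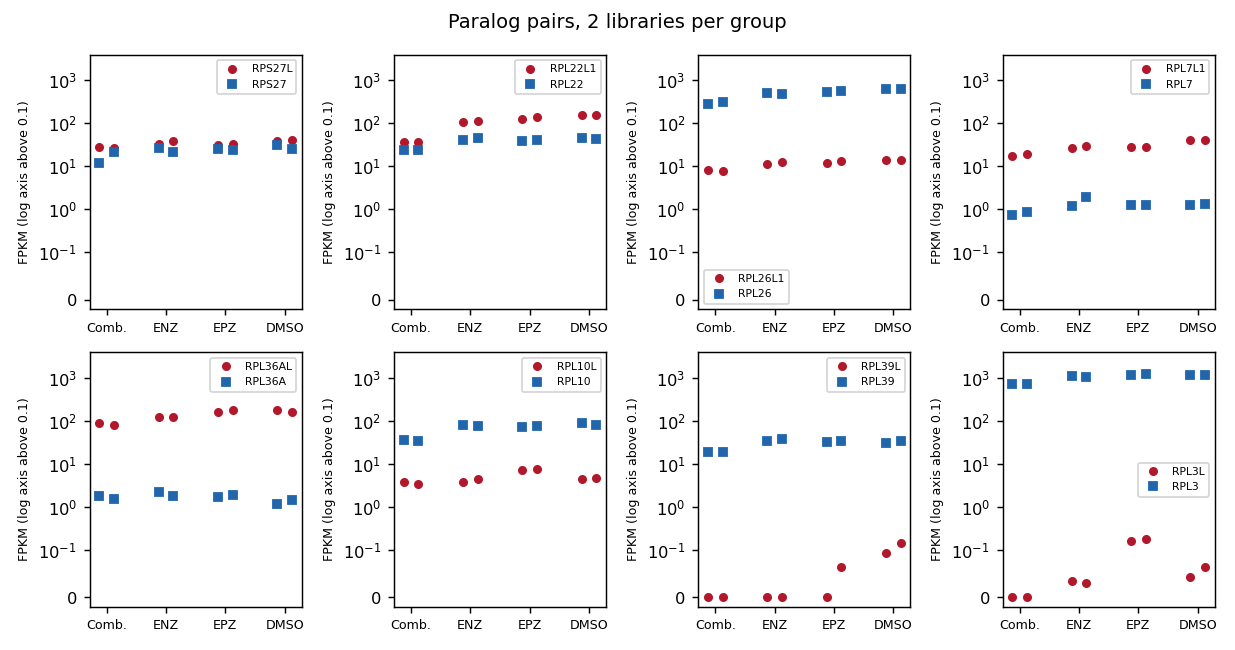
FPKM of 8 paralog pairs in each of the 8 libraries (log axis above 0.1, linear below), with the copy as red circles and its partner as blue squares, for Combination (Comb.), ENZ, EPZ and DMSO. RPL22L1 falls to the level near RPL22 with Combination, RPL10L is highest with EPZ, and RPL39L and RPL3L lie below 0.2 FPKM throughout.

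Ribosomal proteins whose symbols the rule does not take followed the family. All 6 of them were lower with Combination, with a median of −1.08, where 47.4% of all tested genes were lower. Among them were RPLP0, RPLP1 and RPLP2 of the stalk, RPSA, and FAU, which encodes a ribosomal protein fused to a ubiquitin-like protein. RPSA had 67.5 and 62.2 FPKM with Combination, against 204 and 195 in DMSO, a change of −1.61, and RPLP1 was the least changed at −0.68. With ENZ all 6 were lower, where 28.8% of all tested genes were, and with EPZ 4, where 32.4% were.

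Other genes known for an oligopyrimidine start, most of them translation factors, also fell. Of 23 such genes 22 were lower and 1 higher with Combination (median −0.95), where 47.4% of all tested genes were lower and 33.3% higher. Of the 358 genes outside the family averaging at least 100 FPKM, 79.6% were lower (median −0.89). EEF2, the elongation factor that moves the ribosome along, had 1048 and 1082 FPKM with Combination, against 2146 and 2084 in DMSO, a change of −0.99. NAP1L1, a histone chaperone, and NPM1, a nucleolar chaperone, fell by 2.40 and 2.13. EIF4A2, a helicase of translation initiation, was the 1 that rose, with 137 and 134 FPKM with Combination, against 98.6 and 98.3 in DMSO, a change of 0.46. With ENZ 18 were lower and 2 higher, where 28.8% of all tested genes were lower and 27.9% higher. With EPZ 12 were lower and 2 higher, where 32.4% and 23.4% of all tested genes were. Within the family the classes of start differed little: the median with Combination was −1.07 for the 42 members with a tract at a start, −1.19 for 12 with a tract only within 10 bases and −1.01 for the 7 with none.

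Chaperones and importers of ribosomal proteins, 14 genes, were all lower with Combination, with a median of −1.23, where 47.4% of all tested genes were lower. The largest falls were those of the importins IPO5 at −1.90 and IPO4 at −1.88. GRWD1, the chaperone of RPL3, was at −1.68. With ENZ 12 were lower, where 28.8% of all tested genes were, and with EPZ 13, where 32.4% were. Of 14 regulators of ribosomal protein expression 8 were lower, 3 higher and 3 not past the threshold with Combination. These are 57.1% lower and 21.4% higher, not far from the 47.4% and 33.3% of all tested genes. The regulators named next are part of that list and do not stand for all of it. MYC, the transcription factor that drives ribosome production, had 18.9 and 17.98 FPKM with Combination, 43.4 and 41.97 with ENZ and 70.02 and 70.00 with EPZ, against 76.5 and 74.96 in DMSO, a change of −1.98 (SE 0.0533, adjusted p = 8.57e-10) with Combination. EIF4EBP1, which blocks cap-dependent translation when mTOR is inactive, fell by 2.78. MTOR itself was at −0.88 and LARP1 at −0.78. TSC1 and TSC2, which hold mTOR in check, rose by 1.01 and 0.61, as did TBPL1, a TBP relative known from Drosophila to act at the promoters of ribosomal protein genes, by 1.10.

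Pseudogenes of members are listed in the table as 27 rows, of which 9 passed the filter. With Combination 4 of the 9 were lower and 3 higher (median −0.06), where 47.4% of all tested genes were lower and 33.3% higher. They were not named, because reads of nearly identical genes cannot be told apart in these values.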

How the data were processed

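RNA of 8 libraries (4 groups of 2) was measured by RNA sequencing. The authors deposited 1 table of FPKM per gene, and per the submitters' processing notes reads were aligned with STAR to hg38. The sources used here give no versions, annotation or rule for reads that fit several genes. Of 26475 rows 26443 held values, and 28 rows carry symbols turned into dates.

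The deposited FPKM were taken as log2(FPKM + 1). Genes averaging at least 1 FPKM were fitted in limma 3.58.1 (R 4.3.3) with group as the only term, an expression trend and Benjamini-Hochberg adjustment at 0.05, over all 8 libraries in 1 fit. Standard errors are those of the fit, with 4 residual and 5.47 prior degrees of freedom. For departures, each library was centred on the median of members with a mean of at least 10 FPKM. Tracts, pseudogenes and gene positions came from RefSeq (GRCh38.p14) and GENCODE release 29 (hg38). The fit was checked on simulated data.

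Genes are named by rule: the 5 highest and 5 lowest changes against DMSO, the 5 highest levels, calls against the family's direction and up to 8 departures each way. Others are paralogs, genes of the lists, and members that stood out in comparisons of Combination with a single agent or in the interaction, chosen after their values were seen. Members and lists were chosen with earlier results of these data known. Replicate numbers were not taken to pair libraries, as the labels tie them to no shared culture or day. Deviations from group means correlated at −0.0153 to 0.109 over pairs of groups, not all above 0.1, which does not settle whether they pair. Alternatives were other scalings, filters and pseudocounts, other family centres, only the groups compared, a replicate block and each library left out. Centring on the mean of members was added after seeing the data. Protein sequences were not analysed here, and some genes that the rule or the lists name are not reported here; counts and medians include them. FPKM carry no read counts, so no count test was made, and depth was estimated from the steps between low values.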

Additional observations from a re-analysis of the deposited data

Results flagged for a closer look

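The change with both agents differed from the sum of the changes with each agent in 70 members, all lower, by the interaction in limma's fit with Benjamini-Hochberg adjustment over all genes. Of all tested genes 29.6% passed in that direction. Among 358 genes outside the family averaging at least 100 FPKM, 71.5% did (median −0.45). Among the largest were RPL10 at −0.95 and RPL39 at −0.92 on the log2 scale, with both Combination libraries below all 6 others in each gene. The family median in the interaction was −0.63 as deposited, −0.54 after median-of-ratios scaling, −0.45 after scaling to the sum of genes outside the family and −0.32 after quantile normalization. The part of the scaling in these values was not tested.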

How the results depend on the processing

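With 2 libraries a group and no read counts, the spread rests on few degrees of freedom, and no scaling here can tell a smaller pool of RNA from a change in its makeup. Of single-member values under alternatives, 1277 kept direction and side of the threshold, 55 lost the call, 11 gained it and 18 changed sign. No filter, the replicate block, only the groups compared and leaving out a library of a group not compared return the same estimate. In those runs the direction could not change, so the 1277 does not measure how firm the values are. The tally also covers only named members, many of them picked for large changes, and leaves out the others. The causes were not tested.

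With no filter 15 members were lower with EPZ, and with a mean of at least 5 FPKM, which leaves out RPL36A and RPL10L, 0 were higher with ENZ and 0 with EPZ. Median-of-ratios scaling gave medians of −0.39 with ENZ, −0.69 for Combination against ENZ and −0.54 in the interaction, and 1 member higher with EPZ.

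Quantile normalization gave 10 higher and 20 lower with ENZ (median −0.057), 7 and 14 with EPZ (−0.035), 2 higher with Combination (−0.39), a median of −0.33 for Combination against ENZ, 1 higher against EPZ (−0.36) and 1 higher in the interaction (−0.32). RPL10A (0.11), RPL15 (0.10), RPL3 (0.26), RPS27L (0.017), RPS6 (0.10) and RPL36A (−0.16) changed sign with Combination, and RPL7 (−0.082) and RPS18 (0.20) with ENZ. The share differed by 0.199 percentage points with ENZ and −1.90 with Combination. With ribosomal proteins outside the symbol rule the Combination share differed by −4.23.

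Scaling to the sum of genes outside the family gave 4 higher and 42 lower with ENZ, and 6 higher and 14 lower with EPZ. The members' medians were −0.15 and −0.044, where all tested genes had 0.15 and 0.05. Shares of all tested genes called are not given here for ENZ and EPZ, so these counts are not a result about members. With Combination 1 was higher (−0.63), and medians were −0.48 for Combination against ENZ, −0.63 against EPZ and −0.45 in the interaction. RPS18 with ENZ (0.13) and RPL10L (0.091) and RPS3A (0.19) with Combination changed sign.

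With single libraries left out, the lone sample being assumed to vary like the other groups, 0 to 3 members were higher with ENZ, 1 to 2 higher and 15 to 37 lower with EPZ, 10 to 32 departed with EPZ, the median for Combination against EPZ was −0.98 to −0.93, and the EPZ share differed by −0.438 to −0.0880. Values not past the threshold with all libraries changed sign: with EPZ, RPL39 (−0.018 and −0.019, range to 0.098) and RPS3A (−0.017 and −0.0096, range to 0.106) without DMSO replicate 1 and without EPZ replicate 2, and with ENZ, without ENZ replicate 2, RPL7 (range −0.058 to 0.337), RPS18 (−0.069 to 0.00094) and RPS3A (−0.064 to 0.336).

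With a replicate block 1 member was higher with EPZ, since RPL36A missed the threshold (adjusted p = 0.0590), and the Combination count stayed at 74 lower. The numbers are not known to pair the libraries.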
